A study of Mus musculus with 8 samples.

Results

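The proteasome genes of mouse quadriceps muscle were followed in mice lacking Gpcpd1 in muscle and in their controls. Members were all genes whose mouse symbol is Psm followed by a letter from a to g and a number, with pseudogenes left out. The rule took 48 of the 54532 genes in the count tables. By the known role of each product they fall into 8 alpha and 8 constitutive or tissue-specific beta genes of the core, 6 ATPase and 11 non-ATPase genes of the cap, 5 activator and regulator genes, 3 immunoproteasome genes and 7 assembly genes. The 4 knockout libraries came from mice with both Gpcpd1 alleles floxed and a MckCre transgene (labelled MckCre Gpcpd1), in which Cre is driven by the muscle creatine kinase promoter and so acts in muscle cells, not in the other cells of the muscle. The 4 control libraries came from mice with the same floxed alleles and no Cre, so Cre and the loss of Gpcpd1 change together. All mice were 3 months old and fed chow. The labels do not state separate mice, sex or litter. The p-values speak only for the spread among the 8 libraries, and part of that spread may be technical.

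The proteasome is the barrel-shaped protease that degrades proteins tagged with ubiquitin. Rings of alpha subunits gate the barrel and rings of beta subunits carry its protease sites, while the cap binds ubiquitin, removes it, and uses a ring of ATPases to unfold the protein and thread it inside. Other activators can take the place of the cap, immunoproteasome subunits can replace the catalytic beta subunits in immune cells and after interferon, and dedicated chaperones assemble the rings. In muscle the proteasome is best known for breaking down contractile proteins, above all during atrophy.

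Libraries held 4806806 to 5405999 reads in knockouts and 4404116 to 5183079 in controls, read from the 3′ ends of polyadenylated RNA. Gpcpd1 itself, the glycerophosphodiesterase gene that was targeted, averaged 35.1 ± 3.45 CPM (reads scaled to library size by the TMM method) in knockouts and 149.7 ± 10.7 CPM in controls (SD, n = 4 each), with a log2 fold change of -2.09 (SE 0.096, edgeR adjusted p = 2.13e-13). Which exons were floxed was not known here, so 3′ reads may come from outside them. The libraries carried the markers of the labelled tissue: the summed level of 10 skeletal muscle fibre markers was 174900 to 185900 CPM in knockouts and 155800 to 184200 CPM in controls.

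In knockout muscle 19 proteasome genes rose, most of them core and cap subunits, and 1, the activator gene Psme4, fell. Of the 48 members, 45 had enough reads to be tested, and at an adjusted p under 0.05 (edgeR's quasi-likelihood test, adjusted by Benjamini-Hochberg over all 10691 tested genes) 19 were higher, 1 was lower and 25 were not called. Over all tested genes 15.7% were called, 8.87% higher and 6.80% lower. The median log2 fold change of the tested members was 0.284, beside 0.008 over all tested genes, and it ranged from -0.891 for Psme4 to 0.893 for Psmg4. The sign was positive for 39 members and negative for 6. In the alpha, beta, ATPase, non-ATPase, immunoproteasome and assembly classes 0 genes were lower by edgeR, also at an unadjusted p under 0.05 and by DESeq2 or limma voom at an adjusted p under 0.05. All 4 knockout libraries lay above all 4 control libraries for 23 members and below them for 1, and the groups overlapped for 21. Over all tested genes the knockout libraries lay wholly above in 10.3% and wholly below in 8.92%. In bulk muscle, a change in the number of cells of a type and a change in RNA per cell cannot be told apart.

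**Figure D1:**
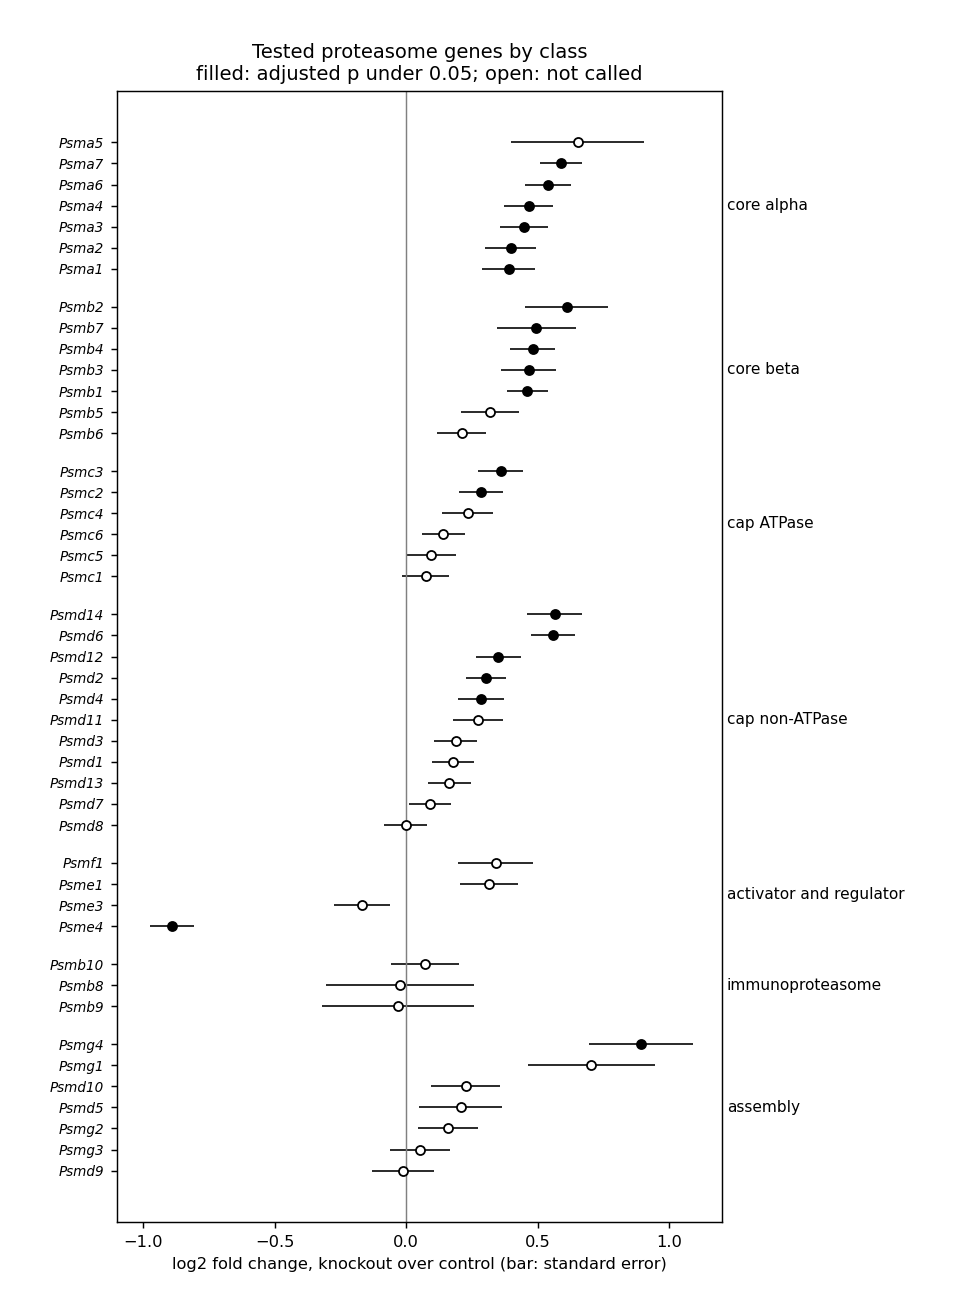
Log2 fold change (knockout over control) of the 45 tested proteasome genes on the horizontal axis, by class and in order of size within each class, with bars for the standard error and filled points for an adjusted p under 0.05. All 14 core genes lie to the right of 0, cap genes lie between -0.002 and 0.565, the 3 immunoproteasome genes sit around 0, and Psme4 stands alone at -0.891.

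The shift was present in each knockout library. The numbers of tested members above their own control mean were 39, 40, 40 and 36 of 45 in knockout libraries 1 to 4, against 22, 27, 22 and 23 in control libraries 1 to 4. The median deviation of members from the control mean was 0.237, 0.343, 0.283 and 0.261 on the log2 scale in the knockout libraries, against 0, 0.029, -0.007 and 0.01 in the controls. The control libraries set this mean themselves, which draws their own counts and deviations toward it, so they are no independent baseline. By this measure every knockout library lay above the controls, and knockout library 2 was the highest. Knockout library 2 was the highest of its group for 17 members and the lowest for 4, whereas knockout library 1 was the highest for 12 and the lowest for 17. Summed reads of the members took 0.919% to 0.950% of all reads in knockouts and 0.826% to 0.852% in controls.

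The promoter windows of 5 members are shown, as examples of the genes that moved: Psma7 and Psma3 of the core, Psmd6 and Psmd14 of the cap, and Psme4, which fell. They were chosen after their values were seen. Each window runs from 250 bases before to 50 bases after the gene start given by RefSeq on GRCm38.p6, in the direction of the gene. Psma7 is read from chr2:180042415-180042714 (minus strand), Psma3 from chr12:70974373-70974672 (plus strand), Psmd6 from chr14:14120896-14121195 (minus strand), Psmd14 from chr2:61711444-61711743 (plus strand) and Psme4 from chr11:30771525-30771824 (plus strand). Capitals mark every match, on either strand, to 3 short motifs: the CCAAT box (CCAAT), an Ets factor core (CCGGAAG) and a core of the antioxidant response element bound by Nfe2l1 and Nfe2l2 (TGACNNNGC). In Psmd14 one pair of CCAAT matches on opposite strands overlaps.
Psma7: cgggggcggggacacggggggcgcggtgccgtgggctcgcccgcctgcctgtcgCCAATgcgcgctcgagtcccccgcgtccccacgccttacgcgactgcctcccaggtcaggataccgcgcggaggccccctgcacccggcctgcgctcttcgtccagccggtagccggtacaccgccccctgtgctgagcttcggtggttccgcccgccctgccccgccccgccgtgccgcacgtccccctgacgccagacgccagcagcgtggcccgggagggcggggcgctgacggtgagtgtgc
Psma3: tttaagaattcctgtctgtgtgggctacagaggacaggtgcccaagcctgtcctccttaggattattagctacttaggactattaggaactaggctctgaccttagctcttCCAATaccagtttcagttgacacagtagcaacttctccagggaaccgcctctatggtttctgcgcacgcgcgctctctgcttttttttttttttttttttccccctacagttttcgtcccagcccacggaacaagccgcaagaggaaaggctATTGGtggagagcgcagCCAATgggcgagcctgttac
Psmd6: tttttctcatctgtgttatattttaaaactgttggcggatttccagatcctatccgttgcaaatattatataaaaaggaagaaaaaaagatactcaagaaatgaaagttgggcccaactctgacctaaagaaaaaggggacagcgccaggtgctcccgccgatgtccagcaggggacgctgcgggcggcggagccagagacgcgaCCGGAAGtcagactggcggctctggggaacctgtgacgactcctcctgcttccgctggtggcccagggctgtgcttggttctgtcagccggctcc
Psmd14: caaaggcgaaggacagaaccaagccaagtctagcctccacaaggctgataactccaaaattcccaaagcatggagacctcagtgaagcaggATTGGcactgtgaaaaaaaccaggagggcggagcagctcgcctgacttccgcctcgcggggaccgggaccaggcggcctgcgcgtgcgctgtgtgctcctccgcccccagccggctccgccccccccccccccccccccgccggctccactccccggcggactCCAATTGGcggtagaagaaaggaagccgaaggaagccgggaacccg
Psme4: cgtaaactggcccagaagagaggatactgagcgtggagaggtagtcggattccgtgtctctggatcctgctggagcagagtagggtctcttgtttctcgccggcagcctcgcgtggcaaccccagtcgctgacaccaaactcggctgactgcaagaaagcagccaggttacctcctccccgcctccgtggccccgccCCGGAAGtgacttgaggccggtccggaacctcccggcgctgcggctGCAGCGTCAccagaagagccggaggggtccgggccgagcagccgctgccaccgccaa

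A window was found for 40 of the 48 members, among them 15 of the 19 higher members and 22 of the 25 not called. The higher members Psmb1, Psmb2, Psmb7 and Psmc3 had no window and are not covered. CCAAT matched in 9 of 15 higher members (60%) and in 4 of 22 members that were not called (18.2%), with no match in Psme4, beside 41.1% of the 27025 genes with a window. The Ets core matched in 6 of 15 higher members (40%), in 7 of 22 not called (31.8%) and in Psme4, beside 9.93% of all genes. The antioxidant core matched in 1 of 15 higher members (6.67%), in 4 of 22 not called (18.2%) and in Psme4, beside 14% of all genes. These are letter matches in 1 short window per start, without a test, and say nothing of what binds there. The 27025 genes include genes with too few reads to be tested here, unlike the 10691 tested genes behind the other shares.

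The alpha subunits, which form the outer rings and the gate of the core, were higher in 6 of 7 tested genes, with a median log2 fold change of 0.467 and a range of 0.391 to 0.653. Their summed level was 915.9 ± 41.8 CPM in knockouts and 647.7 ± 11.9 CPM in controls (SD, n = 4 each), a ratio of 1.414. Each knockout library lay between 135.6% and 148.4% of the control mean, and the controls lay between 98.5% and 102.3%.

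Psma7 (ENSMUSG00000027566, chromosome 2, 180036374 to 180042433, minus strand, GRCm38) had the lowest p of the rising members. It stood at 342.9, 322.3, 325.1 and 319.6 CPM in knockout libraries 1 to 4, against 201.8, 224.6, 223.2 and 220.3 CPM in control libraries 1 to 4. The groups were far apart, with a log2 fold change of 0.59 (SE 0.079, edgeR adjusted p = 8.76e-06). Psma6 (ENSMUSG00000021024) stood at 97.2, 102.4, 88.8 and 110.3 CPM in knockouts, against 69.1, 70.5, 65.4 and 68.9 CPM in controls. Again every knockout library exceeded every control, and the controls were tightly grouped (log2 fold change 0.54, SE 0.089, adjusted p = 0.000128).

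The alpha genes Psma4 (log2 fold change 0.467, adjusted p = 0.000937), Psma3 (0.45, adjusted p = 0.00108), Psma2 (0.398, adjusted p = 0.00598) and Psma1 (0.391, adjusted p = 0.00845) rose as well by edgeR's test. The groups of Psma2 overlapped, since knockout library 1 at 177.2 CPM lay under control library 2 at 178.2 CPM. Without knockout library 4, Psma1 had a log2 fold change of 0.336 and was no longer called (adjusted p = 0.0504). Psma5 had the highest log2 fold change of the class, 0.653, but also its widest spread (SE 0.254) and was not called (adjusted p = 0.124): it stood at 24.9, 37.2, 41.4 and 30.7 CPM in knockouts, against 29.9, 11.8, 21.2 and 23.1 CPM in controls. Without control library 1, the highest control, its log2 fold change was 0.851 and it was called (adjusted p = 0.022), as it was on all 8 libraries by edgeR without robust estimation (0.653, adjusted p = 0.0306) and with no filter (0.636, adjusted p = 0.00012). Psma8, the alpha gene used in the testis, had 0 reads in all 8 libraries, which allows up to 3 reads, or 0.555 to 0.681 CPM.

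**Figure D2:**
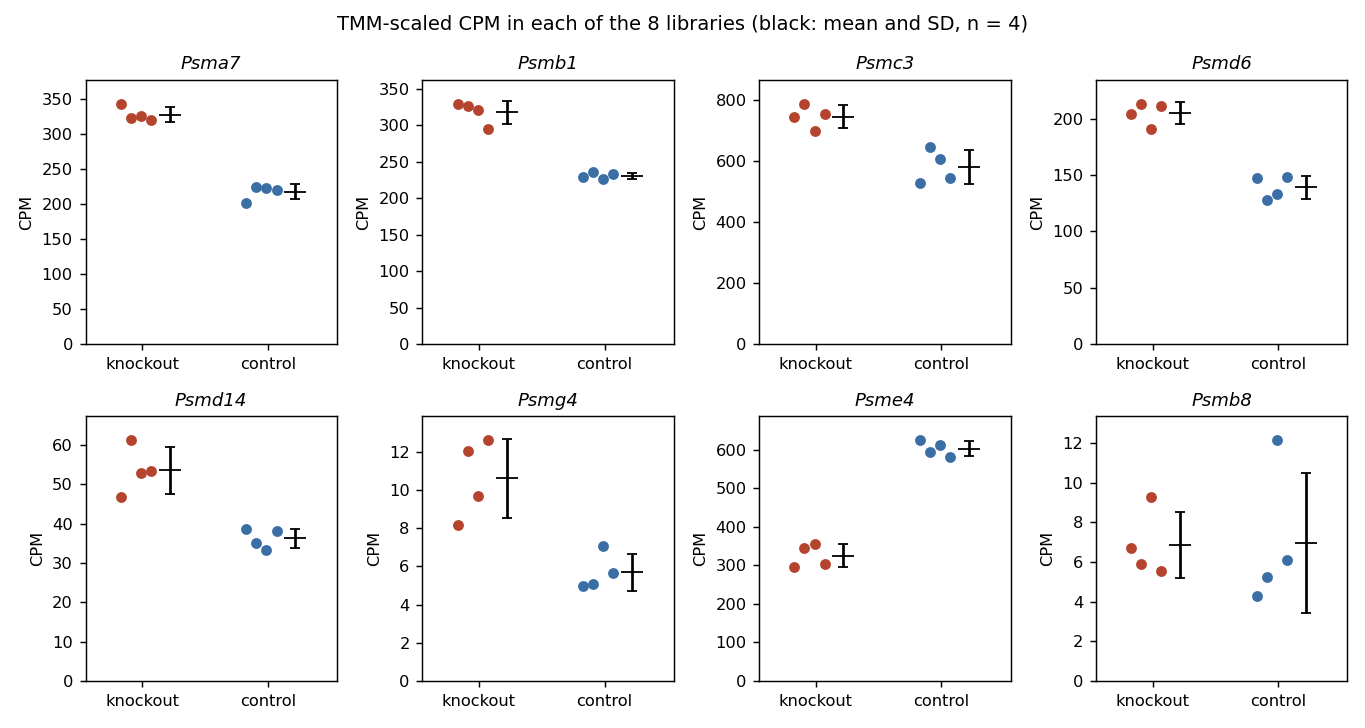
CPM of 8 proteasome genes in each library (points), knockout left of control, with the mean and SD of 4 libraries in black and vertical axes starting at 0. For Psma7, Psmb1, Psmc3, Psmd6, Psmd14 and Psmg4 every knockout point lies above every control point, for Psme4 every knockout point lies below, and for Psmb8 the groups overlap, with control library 3 highest at 12.1 CPM.

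The beta subunits of the inner rings were higher in 5 of 7 tested constitutive genes, with a median log2 fold change of 0.466 (range 0.211 to 0.611). Their summed level was 1256 ± 65.1 CPM in knockouts and 955.6 ± 63.7 CPM in controls (SD, n = 4 each), a ratio of 1.314. Knockout libraries lay between 123.5% and 139.8% of the control mean and controls between 92.4% and 108.2%, so the groups did not overlap.

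The structural, non-catalytic beta genes had the lowest p. Psmb1 (ENSMUSG00000014769) stood at 329.1, 325.8, 320.3 and 294.4 CPM in knockouts, against 228.3, 235.3, 226.3 and 232.7 CPM in controls. The control values lay within a few CPM of each other and well under the lowest knockout (log2 fold change 0.461, SE 0.078, edgeR adjusted p = 0.000174). Psmb4 (ENSMUSG00000005779) stood at 266.2, 312.4, 277 and 317.4 CPM in knockouts, against 197.7, 227.8, 214.8 and 199.9 CPM in controls, also without overlap (log2 fold change 0.481, SE 0.086, adjusted p = 0.000302). Psmb3 (0.466, adjusted p = 0.00278) and Psmb2 (0.611, adjusted p = 0.00909) rose too by edgeR's test. Psmb2 lost its call without control library 3 (0.496, adjusted p = 0.0542). Psmb11, the thymus-specific beta gene, had 0 reads in all 8 libraries.

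Of the 3 constitutive catalytic subunits 1 was called. Psmb7, which carries the trypsin-like site, stood at 92.8, 154.1, 143.4 and 143.8 CPM in knockouts, against 109.4, 93.2, 101 and 75.2 CPM in controls. It was called higher (log2 fold change 0.496, SE 0.152, edgeR adjusted p = 0.0426), but knockout library 1 lay below 3 of the controls. Psmb7 overlaps Nek6 on the opposite strand, which held 474 reads over the 8 libraries beside 4538 of Psmb7. The call was lost in 8 of 16 alternatives: with library totals alone (adjusted p = 0.0747), with limma voom (0.0627), and without knockout library 2 (0.101), 3 (0.111) or 4 (0.108) or control library 2 (0.149), 3 (0.0767) or 4 (0.0969). Psmb5, which carries the chymotrypsin-like site, stood at 33.9, 38.2, 37.9 and 29.9 CPM in knockouts, against 28.9, 28.6, 27.6 and 27.3 CPM in controls. Every knockout library was above every control, yet the gene was not called (log2 fold change 0.319, SE 0.111, adjusted p = 0.052). It was called without knockout library 4 (0.375, adjusted p = 0.0339) and with a filter of at least 5 CPM in 4 libraries (0.318, adjusted p = 0.0467). Psmb6, which carries the caspase-like site, stood at 313.6, 375.4, 338.3 and 366.5 CPM in knockouts, against 282.8, 347.8, 312.3 and 261.2 CPM in controls. These groups overlapped and the gene was not called (log2 fold change 0.211, SE 0.093, adjusted p = 0.132), except without control library 2 (0.276, adjusted p = 0.0348).

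Among the 6 ATPase genes of the cap, which form the ring that unfolds substrates, 2 were higher. Their log2 fold changes ran from 0.074 to 0.36, with a median of 0.187. Their summed level was 2250 ± 110 CPM in knockouts and 1979 ± 147 CPM in controls (SD, n = 4 each), a ratio of 1.137. The ATPase groups overlapped, since the lowest knockout library was at 108.4% of the control mean and the highest control above it.

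Psmc3 (ENSMUSG00000002102) stood at 743.4, 787.7, 699.5 and 752.8 CPM in knockouts, against 526.8, 647.2, 605.6 and 544.1 CPM in controls. The lowest knockout exceeded the highest control (log2 fold change 0.36, SE 0.085, edgeR adjusted p = 0.00424). Psmc2 (ENSMUSG00000028932) stood at 93.0, 101, 96.4 and 94.5 CPM in knockouts, against 83.6, 76.2, 75.0 and 81.6 CPM in controls. Its groups were apart as well (log2 fold change 0.284, SE 0.084, adjusted p = 0.0214), but the call was lost in 7 of 16 alternatives: with library totals alone (0.0601), with no filter (0.0722), and without knockout library 2 (0.0737), 3 (0.0522) or 4 (0.055) or control library 2 (0.0545) or 3 (0.0979). Psmc4 (log2 fold change 0.234, adjusted p = 0.109), Psmc6 (0.141, adjusted p = 0.281), Psmc5 (0.096, adjusted p = 0.554) and Psmc1 (0.074, adjusted p = 0.644) were not called by edgeR. Psmc4 was called without control library 2 (0.301, adjusted p = 0.0388), its highest control.

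The 11 non-ATPase genes of the cap cover scaffolds, ubiquitin receptors and the deubiquitinase, and 5 of them were higher. Their log2 fold changes ran from -0.002 to 0.565, with a median of 0.273. Their summed level was 4528 ± 84.3 CPM in knockouts and 3909 ± 122 CPM in controls (SD, n = 4 each), a ratio of 1.158. By this sum knockout libraries lay between 113.9% and 118.4% of the control mean and controls between 97.9% and 104.6%, without overlap. Gene by gene, the knockout libraries lay wholly above the controls for 7 of the 11, beside 10.3% of all tested genes.

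Psmd6 (ENSMUSG00000021737, chromosome 14, 14112174 to 14120984, minus strand, GRCm38), a subunit of the lid, stood at 204.2, 213.1, 191 and 211 CPM in knockouts, against 147.7, 127.9, 133.1 and 148 CPM in controls. The groups were separated by more than either one's own range (log2 fold change 0.558, SE 0.083, edgeR adjusted p = 3.87e-05). Psmd14 (ENSMUSG00000026914), the deubiquitinase that removes ubiquitin chains from arriving substrates, stood at 46.7, 61.1, 53.0 and 53.3 CPM in knockouts, against 38.6, 35.1, 33.3 and 38.0 CPM in controls. Its knockout libraries spread more than its controls but did not meet them (log2 fold change 0.565, SE 0.104, adjusted p = 0.000406).

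The lid gene Psmd12 (log2 fold change 0.351, adjusted p = 0.00582), which holds a same-strand intronic gene with 609 reads beside its own 4452, and the scaffold gene Psmd2 (0.303, adjusted p = 0.00683) rose by edgeR's test. The ubiquitin receptor gene Psmd4 stood at 1539, 1345, 1317 and 1349 CPM in knockouts, against 1020, 1268, 1116 and 1154 CPM in controls (log2 fold change 0.284, adjusted p = 0.0262). It lost its call without knockout library 1 (0.224, adjusted p = 0.0776), its highest library, without knockout library 4 (adjusted p = 0.0626), and without control library 1 (0.0946) or 3 (0.0953). The lid gene Psmd11 (0.273, adjusted p = 0.0539) was not called, but was without knockout library 1 (adjusted p = 0.0481) or control library 1 (0.0232) or 4 (0.047). Psmd3 (0.188), Psmd1 (0.18), Psmd13 (0.164), Psmd7 (0.09) and Psmd8 (-0.002) had adjusted p-values between 0.119 and 0.991.

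**Figure D3:**
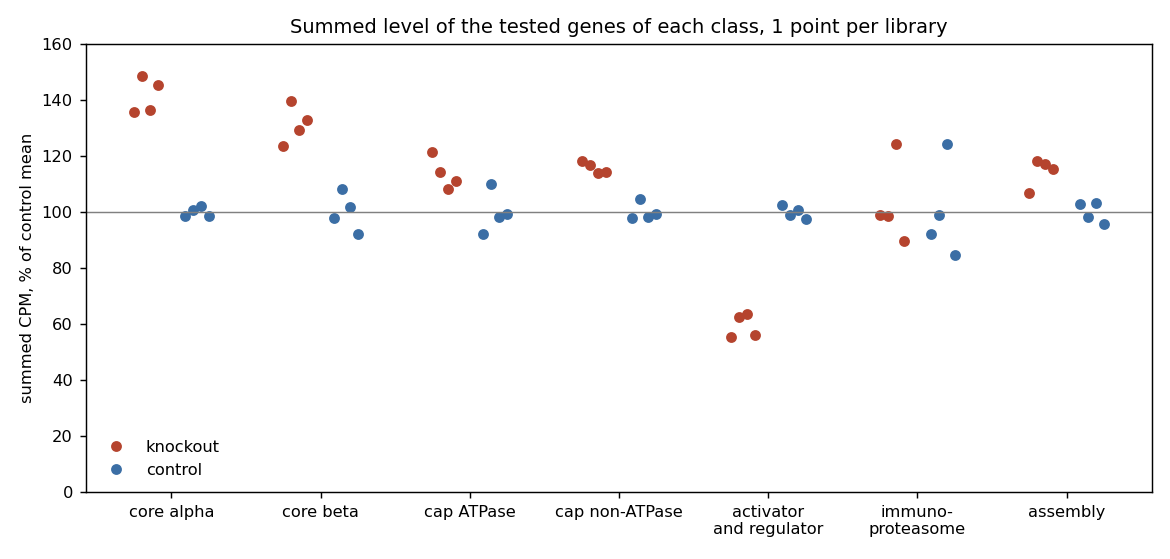
Summed CPM of the tested genes of each class in each library, as a percentage of the control mean of that class (vertical axis from 0), with knockout points left of control points. In the core alpha, core beta, cap non-ATPase and assembly classes all knockout points lie above all control points. The activator and regulator class lies at 55.3% to 63.6% of the control mean in knockouts, and the cap ATPase and immunoproteasome groups overlap.

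Within a library, reads of cap genes can be set against reads of core genes without any scaling between libraries. The cap genes gave 3.41, 2.97, 3.11 and 3.01 reads per core read in knockout libraries 1 to 4, against 3.60, 3.72, 3.54 and 3.84 in control libraries 1 to 4. All 4 knockout ratios were below all 4 control ratios, so core transcripts took a larger part of the core and cap reads in knockouts. The members were chosen as a group and the ratio was given no test.

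**Figure D4:**
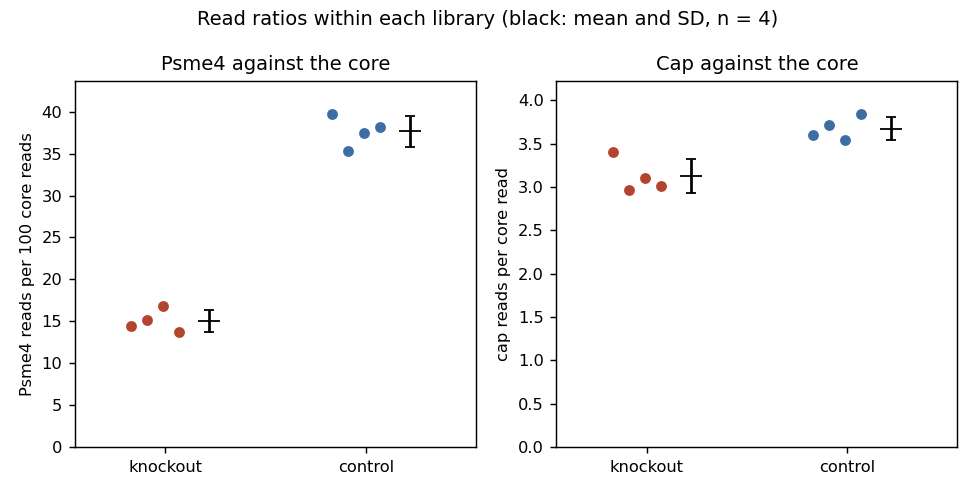
Read ratios in each library, knockout left of control, with the mean and SD of 4 libraries in black and axes starting at 0. Psme4 gave 13.7 to 16.8 reads per 100 core reads in knockouts and 35.3 to 39.7 in controls, and the cap gave 2.97 to 3.41 reads per core read in knockouts and 3.54 to 3.84 in controls.

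Psme4, which encodes an activator that caps the core without ATP or ubiquitin and is known for the breakdown of acetylated histones, was the 1 member that fell. Psme4 (ENSMUSG00000040850, chromosome 11, 30771726 to 30880361, plus strand, GRCm38) stood at 296, 346, 355.8 and 302.5 CPM in knockouts, against 624.4, 594.9, 612 and 581.6 CPM in controls. The highest knockout library was well under the lowest control, and the means were 325.1 ± 30.2 CPM in knockouts and 603.2 ± 18.8 CPM in controls (SD, n = 4 each). The log2 fold change was -0.891 (SE 0.084, edgeR adjusted p = 4.99e-08), a fold of 0.539, and by p the gene ranked 36 of the 10691 tested genes. Over the 16 alternatives its log2 fold change ran from -0.938 to -0.856. Relative to the core, Psme4 gave 14.4, 15.1, 16.8 and 13.7 reads per 100 core reads in knockout libraries 1 to 4, against 39.7, 35.3, 37.5 and 38.2 in control libraries 1 to 4.

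No other activator or regulator was called. Psme1, a subunit of the interferon-inducible activator, stood at 29.1, 29.6, 29.0 and 28.0 CPM in knockouts, against 22.4, 23.9, 22.3 and 24.4 CPM in controls. Its groups did not overlap, but its adjusted p was 0.0546 by edgeR (log2 fold change 0.314, SE 0.11). It was called by edgeR without robust estimation (adjusted p = 0.0489) and with a filter of at least 5 CPM in 4 libraries (adjusted p = 0.0446). Psme1 overlaps Emc9 on the opposite strand, which held 1035 reads over the 8 libraries beside 1033 of Psme1, and whether the counting used strand was not known. Psme2, its partner subunit, held 8, 9, 12 and 7 reads in knockout libraries 1 to 4 and 6, 7, 12 and 7 in control libraries 1 to 4, too few to be tested. Psmf1, which encodes an inhibitor of the core in vitro, averaged 14.4 ± 0.646 CPM in knockouts and 11.4 ± 0.569 CPM in controls without overlap, and was not called (log2 fold change 0.341, adjusted p = 0.113). Psme3, the gene of the nuclear activator, had a log2 fold change of -0.168 (adjusted p = 0.323). Psme4 carried most of the class sum, which was 400.8 ± 28.9 CPM in knockouts and 674.2 ± 14.7 CPM in controls (ratio 0.595).

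The immunoproteasome genes, whose products replace the catalytic beta subunits, did not pass the test and overlapped between groups. By edgeR 0 of the 3 genes were called, 0 had an unadjusted p under 0.05, and DESeq2 and limma voom called 0. Psmb8 stood at 6.70, 5.92, 9.29 and 5.55 CPM in knockouts, against 4.31, 5.27, 12.1 and 6.10 CPM in controls (log2 fold change -0.023, SE 0.28, edgeR adjusted p = 0.971). Psmb9 stood at 2.72, 3.06, 4.65 and 2.13 CPM in knockouts, against 3.88, 2.64, 2.94 and 3.57 CPM in controls (-0.032, SE 0.289, adjusted p = 0.96). Both were low, and for each the spread between libraries exceeded the difference between the group means. Psmb9 also shares its locus with Tap1 on the opposite strand, with 228 reads of Tap1 over the 8 libraries beside 127 of Psmb9. Psmb10 stood at 23.0, 23.3, 26.8 and 21.8 CPM in knockouts, against 22.0, 24.5, 25.7 and 18.1 CPM in controls (0.072, SE 0.13, adjusted p = 0.77).

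Each immunoproteasome gene was also set against the constitutive gene whose place its product takes. The difference in mean log2 ratio (knockout minus control) was -0.24 for Psmb8 to Psmb5, -0.31 for Psmb9 to Psmb6 and -0.40 for Psmb10 to Psmb7. Exact two-sided permutation tests over the 8 libraries gave p = 0.686, 0.343 and 0.0857 in that order, and 0.686, 0.514 and 0.257 when adjusted over the 3 pairs, where the smallest raw p the design allows is 0.0286. Psmb10 gave 24.8, 15.1, 18.7 and 15.1 reads per 100 Psmb7 reads in knockouts, against 20.1, 26.3, 25.4 and 24 in controls, and only knockout library 1 lay among the controls. Without control library 3, the highest for Psmb8, the difference for Psmb8 to Psmb5 was 0.071.

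Cells of the immune system express these genes strongly. Of 10 macrophage markers 9 were tested and 3 were lower by edgeR, beside 6.80% of all tested genes. These were Csf1r (log2 fold change -0.59, adjusted p = 0.0392, groups overlapping), Cd163 (-0.747, adjusted p = 0.00478) and C1qb (-0.829, adjusted p = 0.00768). DESeq2 called 3 of the list lower and limma voom 2. The summed level of the 10 markers was 68.3 to 114.5 CPM in knockouts and 95.6 to 157.8 CPM in controls, with overlap. Of 8 lymphocyte markers 0 had enough reads to be tested, their sum was 0.213 to 1.67 CPM in knockouts and 0.196 to 1.051 CPM in controls, and the B cell gene Cd79a had 0 reads in all libraries. The part of macrophage RNA in the values of Psmb8, Psmb9 and Psmb10 was not tested.

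The assembly genes encode chaperones that build the core and the cap and leave before the proteasome is complete. Of the 7 tested genes 1 was higher, beside 8.87% of all tested genes, and the groups overlapped for 6. The median log2 fold change was 0.207 (range -0.011 to 0.893). Their summed level was 142.8 ± 6.39 CPM in knockouts and 124.8 ± 4.5 CPM in controls (SD, n = 4 each), a ratio of 1.143. By this sum knockout libraries lay between 106.8% and 118.1% of the control mean and controls between 95.8% and 103.2%, without overlap. Psmg4 (ENSMUSG00000071451, chromosome 13, 34162964 to 34178173, plus strand, GRCm38), part of a chaperone pair for the alpha ring, stood at 8.17, 12.03, 9.66 and 12.6 CPM in knockouts, against 4.95, 5.07, 7.05 and 5.68 CPM in controls. Every knockout was above every control, and this was the highest fold change of all members (log2 fold change 0.893, SE 0.197, edgeR adjusted p = 0.00235). Its partner Psmg3 had a log2 fold change of 0.052 (adjusted p = 0.815). Psmg1, of the other chaperone pair of the alpha ring, stood at 8.59, 9.55, 10.4 and 5.97 CPM in knockouts, against 7.97, 3.04, 4.50 and 5.89 CPM in controls. Its groups overlapped at these low levels and it was not called (log2 fold change 0.705, SE 0.243, adjusted p = 0.0509), though it was by limma voom (0.758, adjusted p = 0.0433), with no filter (0.688, adjusted p = 0.0239), and without knockout library 4 (0.83, adjusted p = 0.0296) or control library 1 (0.954, adjusted p = 0.012). Psmg2, its partner (0.159, adjusted p = 0.397), and the cap chaperones Psmd10 (0.227, adjusted p = 0.275), Psmd5 (0.207, adjusted p = 0.43) and Psmd9 (-0.011, adjusted p = 0.966) were not called.

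Genes whose products work with the proteasome are set beside the 8.87% of all tested genes that were higher and the 6.80% that were lower. Among 11 tested partners outside the symbol rule, the deubiquitinase gene Uchl5 was higher (log2 fold change 0.336, edgeR adjusted p = 0.0478; 0 genes of the list were higher by DESeq2 or limma voom), and the adaptor gene Ecpas (-0.386, adjusted p = 0.00139) and the ubiquitin ligase gene Ube3c (-0.561, adjusted p = 0.000119) were lower. Ube3c stood at 47.1, 54.0, 51.8 and 48.6 CPM in knockouts, against 70.6, 72.2, 72.4 and 82.6 CPM in controls, with no overlap. The median of the list was 0.167.

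Genes that bring ubiquitin-tagged proteins to the proteasome, which are the shuttle receptors and the ATPase Vcp with its cofactors, were higher in 5 of 16 tested genes and lower in 1 (median 0.143). DESeq2 called 4 of the list higher and limma voom 5. The higher genes were the Vcp cofactors Ufd1 (log2 fold change 0.461, adjusted p = 0.00687), Nploc4 (0.353, adjusted p = 0.0119), Nsfl1c (0.523, adjusted p = 0.0492), Ubxn1 (0.316, adjusted p = 0.00824) and Ubxn4 (0.348, adjusted p = 0.006), all by edgeR. The lower gene was the shuttle Ubqln4 (-0.313, adjusted p = 0.0158).

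Transcription factors and other regulators known to act on proteasome genes gave 0 higher genes and 1 lower gene of 12 tested (median -0.185). The count of higher genes was also 0 at an unadjusted p under 0.05 and by DESeq2 and limma voom. For lower genes the count was 2 at an unadjusted p under 0.05 by edgeR, and 1 by DESeq2 and by limma voom. Foxo4, a forkhead factor, stood at 165.1, 175.5, 144.7 and 171.5 CPM in knockouts, against 261.7, 341.8, 306.6 and 239 CPM in controls (log2 fold change -0.807, edgeR adjusted p = 4.27e-06). Nfe2l1, which raises proteasome transcripts when the proteasome is inhibited, had a log2 fold change of -0.111 (adjusted p = 0.435), and Nfe2l2 one of -0.077 (adjusted p = 0.769). These are RNA levels, and the activity of the factors was not measured. Of 10 tested targets of Nfe2l2 outside the proteasome, Gsta4 was higher (0.821, adjusted p = 0.00221), and Txnrd1 (-0.673, adjusted p = 9.1e-05) and Gstm1 (-0.387, adjusted p = 0.00486) were lower. Of 22 tested antigen processing and interferon genes 0 were called in either direction by edgeR, DESeq2 or limma voom, and at an unadjusted p under 0.05 edgeR had 0 higher and 1 lower. The median of that list was -0.088 and the range -0.465 to 0.243.

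**Figure D5:**
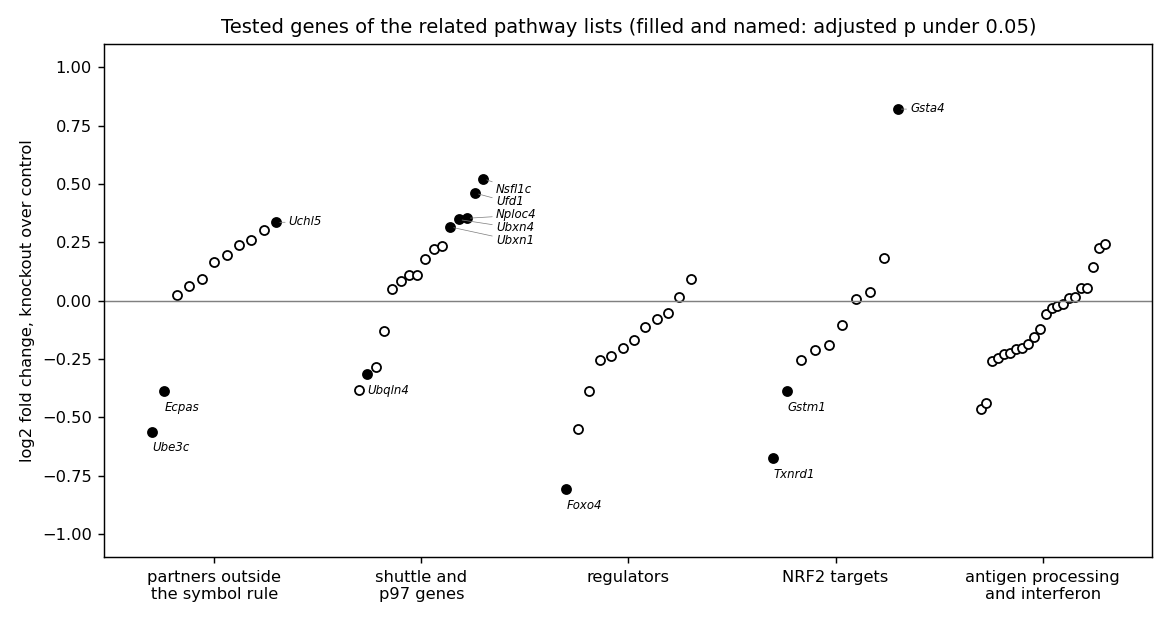
Log2 fold change (knockout over control, vertical axis) of the tested genes of 5 related lists, ordered by size within each list, with called genes filled and named. Shuttle and Vcp (p97) cofactor genes hold 5 of the 7 higher genes, while Foxo4 has the lowest value and the antigen processing and interferon list holds no called gene.

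Of 10 muscle fibre markers 2 were higher, 1 was lower and 7 were not called by edgeR. Over all tested genes 8.87% were higher and 6.80% lower. Mb (log2 fold change 0.866, edgeR adjusted p = 6.14e-05) and Acta1 (0.264, adjusted p = 0.0495) were higher and the fast myosin gene Myh4 (-0.313, adjusted p = 0.0128) was lower. DESeq2 and limma voom each called 3 of the list higher and 1 lower, and at an unadjusted p under 0.05 edgeR had 6 higher and 1 lower. Myh2, another fast myosin gene, had a log2 fold change of 1.46 with every knockout above every control, and was not called by edgeR (adjusted p = 0.0644). Of 8 markers of fibro-adipogenic progenitors Dcn was lower (-0.27, adjusted p = 0.0387), and their summed level was 857.8 to 1151 CPM in knockouts and 1109 to 1328 CPM in controls. Of the tested endothelial, satellite cell, adipocyte, smooth muscle, Schwann cell and erythrocyte markers 0 were called by edgeR, DESeq2 or limma voom, and at an unadjusted p under 0.05 edgeR had 1 endothelial gene lower and 1 smooth muscle gene higher. The part of fibre type or of other cells in the proteasome values was not tested.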

How the data were processed

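RNA from quadriceps muscle was measured in 4 knockout and 4 control libraries by QuantSeq 3′ FWD sequencing, in which reads come from near the 3′ end of polyadenylated RNA. The authors deposited, per the file headers, 1 table of unnormalized read counts per gene (Ensembl IDs) for each library. According to the submitters' processing notes, Bowtie2 2.3.4.1, featureCounts and Subread 1.6.2 were used, on GRCm38 (mm10). Not given in the sources used here are the annotation release, the strand setting and how reads with several matches were treated. GENCODE M21 named 54409 of the 54532 genes.

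Groups came from the genotype labels, and the library numbers, given by accession order, pair nothing. The lowest chi-square per degree of freedom between 2 libraries was 2.33, so no pair was as alike as sampling noise would make it. In R 4.3.3, edgeR 4.0.16 was run on the counts: filterByExpr (minimum count 10, minimum total 15) left 10691 genes, TMM set the library scale, and the genotypes were compared by the robust quasi-likelihood F test with Benjamini-Hochberg adjustment over all tested genes (threshold 0.05). The procedure was tested on simulated data. CPM values use TMM-scaled totals, deviations from the control mean use log2(CPM + 0.5), and ratios of immunoproteasome genes use log2 counts with 0.5 added. A floor of 3 reads is 0.555 to 0.681 CPM and covers counting error only. Alternatives were DESeq2 1.42.0, limma voom 3.58.1, edgeR without robust estimation, 3 other scalings, 2 other filters, leaving out each library, and another class for Psmd5, Psmd9 and Psmd10.

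Values in every library are given for the 2 members of lowest p in each class, the members of highest and lowest log2 fold change, Psmb5 to Psmb10 and, as reads, untested members; of the related lists, called genes are named. Psma5, Psmd4, Psmf1, Ube3c, Foxo4, Myh2, Nfe2l1 and Nfe2l2 were given more values after these had been seen. The shuttle list leaves out 1 gene, which is not reported here. The members, the class and pathway lists and the motifs were chosen with earlier results of these data known. The list of members leaves out 6 genes, of which 4 are pseudogenes and the others are Psmc3ip and Psme2b, whose symbols fall outside the rule.

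Of the tested members 11 have another gene that matches at least 95% of 60 or more of their last 300 transcript bases, 18 such genes in all. Of the matching genes with counts, 0 held over 10% of the member's reads. For Psmb3 and for Psmc1 a matching gene was absent from the counts, so its reads are not known. Overlaps with another gene that held over 10% of the member's reads were found for Psmb7 (Nek6), Psmb9 (Tap1), Psmd12 (Gm11722) and Psme1 (Emc9), whose counts are uncertain. Promoter windows are from RefSeq on GRCm38.p6.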

Additional observations from a re-analysis of the deposited data

Results flagged for a closer look

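In 90 groups of 4 libraries (45 genes in each genotype), 2 values stood far enough from the other 3 to exceed Dixon's 95% critical value; chance alone flags about 1 in 20 groups. Psmd4 stood at 1540 CPM in knockout library 1, where the other knockouts lay between 1320 and 1350 CPM (gap 0.857 of the range). Psmc4 stood at 52.5 CPM in control library 2, where the other controls lay between 42.2 and 43.7 CPM (gap 0.862 of the range).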

How the results depend on the processing

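Over 16 alternatives, 15 to 21 members were higher and 1 was lower. Of the 20 called members 15 kept their call throughout, and 5 lost it under at least 1 alternative, with the values given beside each (Psma1, Psmb2, Psmb7, Psmc2 and Psmd4), while 0 changed sign. Of the 25 members not called, 7 were called under at least 1 alternative. The median log2 fold change of the members, 0.284, was 0.249 with library totals alone and 0.267 with no filter, and 0.274 to 0.309 when 1 library was left out; the cause was not tested. The median over all tested genes was 0.008 in the main analysis, -0.03 with library totals alone and -0.009 with no filter. No scaling moved it beyond -0.03. The sign turned in 7 genes near 0, none of them called. With 1 library left out, the log2 fold change ran from -0.21 to 0.385 for Psmb8, from -0.29 to 0.097 for Psmb9, from -0.048 to 0.029 for Psmd8, from -0.049 to 0.005 for Psmd9, from -0.024 to 0.128 for Psmb10, from -0.011 to 0.125 for Psmc1 and from -0.024 to 0.094 for Psmg3. Psmb8 was 0.062 with limma voom. The log2 ratio difference of Psmb8 to Psmb5 ran from -0.4405 to 0.07121 with 1 library left out, that of Psmb9 to Psmb6 from -0.5209 to -0.1222 and that of Psmb10 to Psmb7 from -0.5547 to -0.3161, and Gpcpd1 stayed between -2.151 and -2.034. With Psmd5, Psmd9 and Psmd10 placed in the non-ATPase class, that class had a median of 0.217 and the assembly class 0.432. Of the pathway genes, 3 to 8 were higher (7 in the main analysis, 5 by DESeq2, 3 without control library 3) and 5 to 10 lower (6 in the main analysis, 10 without knockout library 1). No paired analysis was possible because the replicate numbers 1 to 4 were given in accession order, and nothing in the labels ties a knockout library to a control library. Psmb9 did not pass the filter of 5 CPM and has no value under it. Low read numbers limit what can be said of Psmb8, Psmb9 and Psme2.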
